A study of Mus musculus with 12 samples.

Results

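The aryl hydrocarbon receptor (AHR) and NRF2 control 2 overlapping sets of genes by which cells handle foreign chemicals and oxidants, and 10 of these genes were followed here: the receptor gene Ahr, its targets Cyp1a1, Cyp1b1 and Tiparp, the shared target Nqo1, and the NRF2 targets Gclc, Gclm, Srxn1, Txnrd1 and Hmox1. They were selected on their measured values on these same arrays, so their differences between groups are given as a description, without p-values. All 10 were on the array, by the RefSeq transcripts that name its probes, and all 10 passed the filter on dim probes, which left 12411 of 17016 genes. The members did not move as 1 block. Ahr, Cyp1b1, Nqo1 and Srxn1 were lower in FAK knockout than in rescue cells at both seeding densities, although Nqo1 did not pass the threshold once slides were taken into account. Gclc and Gclm were higher, and Hmox1 was high in sparse knockout cells. In sparse cells these 3 differences did not hold when arrays were scaled to spike-in RNA. With that scaling Nqo1 and Srxn1 did not pass the threshold in dense cells. Cyp1a1 was above background in sparse rescue cells alone.

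The cells were mouse embryonic fibroblasts of 2 lines. Ptk2 encodes focal adhesion kinase (FAK), an enzyme that relays signals from integrins at sites of adhesion. FAK is missing in the knockout (KO) line, which comes from a cell bank, and the rescue line is 1 clone, DA2, of cells that were given FAK back. The medium of the rescue line, unlike that of the KO line, also held hygromycin B and non-essential amino acids, and the effects of medium and line cannot be told apart. Dense cultures were seeded with 8200000 cells and sparse cultures with 410000 cells per 10 cm dish, and all were harvested by trypsin after 24 h. The 4 groups were dense KO, sparse KO, dense rescue and sparse rescue, with 3 cultures each, 1 from each of 3 experimental days that number the replicates. RNA of all cultures was prepared on the same day and each was labelled with Cy3 and read on 1 one-colour Agilent array.

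AHR waits in the cytoplasm with HSP90 chaperones. When it binds planar aromatic compounds it enters the nucleus, pairs with ARNT and binds the xenobiotic response element (XRE), which induces cytochrome P450 enzymes of the CYP1 family and also feedback inhibitors of the receptor. NRF2, encoded by Nfe2l2, is held by KEAP1 and degraded until electrophiles or oxidants modify KEAP1. It then pairs with small MAF proteins on the antioxidant response element (ARE), a site for which BACH1 competes, and induces enzymes that make glutathione, reduce thioredoxin and quinones and degrade haem. In mouse embryonic fibroblasts Cyp1b1 is the CYP1 gene known for its constitutive expression, while Cyp1a1 is known as the inducible one.

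The median signal of an array lay between 19.48 and 84.56 intensity units. Between 23143 and 26173 of 41174 probes per array were well above background. The number of arrays limits the precision. Levels are log2 signals relative to the 75th percentile of the array, so they compare 1 probe between arrays and not 1 gene with another. The 2 densities of a line and day shared a slide, but the lines shared only the slide of day 2, so that slide and line cannot be told apart on the other days. Ptk2 was measured by 2 probes with an unknown place with respect to the deletion, which leaves both unfit as a check of the labels. The brighter one had levels of 0.03 to 0.50 in dense KO, 0.07 to 0.36 in sparse KO, 0.34 to 0.39 in dense rescue and 0.08 to 0.48 in sparse rescue cells. The dimmer one had -1.88 to -1.33 in dense KO and -1.76 to -1.1 in sparse KO cells, against -0.97 to -0.17 in dense rescue and 0.23 to 1.24 in sparse rescue cells. Of 10 fibroblast markers, 8 were well above background on all arrays of every group, with a summed level, relative to the 75th percentile, of 399 to 428 in dense KO, 387 to 423 in sparse KO, 1070 to 1960 in dense rescue and 1230 to 1420 in sparse rescue cells. Epithelial and mesothelial markers, 8 in number, had summed levels of 139 to 151, 166 to 196, 25.2 to 37.4 and 28.0 to 46.0 in the same group order. These sums hide opposite directions. Col1a1, Col1a2, Col3a1, Pdgfrb, Vim and S100a4 were higher in rescue cells at both densities. Dcn had mean levels of 6.203 in dense KO, 6.006 in sparse KO, 5.787 in dense rescue and 1.236 in sparse rescue cells. Pdgfra had -0.6968, -0.7845, 1.701 and -2.013 in the same order. Of the epithelial and mesothelial markers, Krt18, Upk3b and Wt1 were higher in KO cells, whereas Msln had mean levels of 3.195 in dense KO and 3.704 in sparse KO cells. Msln in rescue cells had 4.855 at the dense and 5.01 at the sparse seeding. Cdh1 was above background on 3 of 3 dense rescue arrays and on no KO array. The part of these markers in the differences between the lines was not tested. Hepatocyte markers, the cell type best known for these pathways, summed to at most 0.129 on any array. Of these 5 hepatocyte markers 4, Alb among them, were above background on no array. The 4 macrophage markers summed to 0.34 to 0.419 in dense KO, 0.508 to 0.875 in sparse KO, 1.67 to 2.45 in dense rescue and 3.15 to 3.69 in sparse rescue cells. The 2 above background on all arrays of each group were Cd14 and Csf1r. Cd14 had mean levels of -4.347 in dense KO, -4.552 in sparse KO, 0.8806 in dense rescue and 1.43 in sparse rescue cells. Csf1r had -1.745, -0.9522, -1.915 and -0.6913 in the same order. Ptprc was above background on no array, and Adgre1 on 1 of 3 arrays of each KO group and on no rescue array. The part of the macrophage markers in the differences was not tested. The 4 endothelial markers summed to at most 0.246. In such bulk RNA, fewer cells of a type and less RNA per cell cannot be told apart. Directions in the text hold for scaling to the 75th percentile. Scaling to spike-in RNA moved the median of all genes by 3.09 in the comparison of dense with sparse KO cells. The 9 members detected in KO cells were then higher in dense KO cells, with Hmox1 short of the threshold.

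The deposited records of day 3 contradict each other. In the authors' table of processed values, the columns of both KO cultures of day 3 followed the scanner files of the rescue cultures of that day and density (r = 0.9719 and 0.9827 over 27572 probes), and the rescue columns followed the KO files (0.9837 and 0.9816). The scanner files were used with the labels they carry, and in them day 3 stayed with its line for the markers Wt1 and Upk3b, which are no members. Both were listed with their difference between the lines already known from these data, so they are no independent check of the labels. Wt1 had mean levels of 4.65 ± 0.07 in dense KO, 4.61 ± 0.20 in sparse KO, -7.48 ± 0.91 in dense rescue and -7.63 ± 0.29 in sparse rescue cells (SD, n = 3 each), and both markers were above background on 3 of 3 arrays of each KO group and on no rescue array. Without day 3 in every group, the members past the threshold described further on numbered 6 in dense and 7 in sparse cells between the lines, 1 in KO and 5 in rescue cells between the densities, and 1 for the difference between these responses, against 6, 8, 2, 6 and 2 with it. The calls lost were Gclm in sparse cells (0.82), Gclc in KO cells (-0.92), Cyp1b1 in rescue cells (-0.49) and Cyp1a1 in the difference between responses. Between the lines, the differences of Ahr, Cyp1b1 and Srxn1 without day 3 were -2.89, -2.33 and -1.79 in dense and -3.37, -2.36 and -1.70 in sparse cells. Those of Nqo1 were -1.11 and -1.63, those of Gclc 1.44 and 0.89, that of Gclm in dense cells 1.79, and those of Hmox1 and Cyp1a1 in sparse cells 2.25 and -3.53. Counts of other pathway genes were 76, 61, 10, 40 and 17 without day 3, against 84, 63, 16, 50 and 33 with it, and those of all 12411 genes 6858, 5181, 635, 3756 and 1238, against 7651, 6068, 1360, 4980 and 2583.

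Promoter windows of 300 bases, from 250 before to 50 after the start, were found in the RefSeq table (GRCm38.p6) for 7 of the 10 members; those of Ahr, Gclc and Hmox1 are not shown. The following 5 are printed because they hold, in capitals, letters of the XRE core (GCGTG, or CACGC on the other strand) or of an ARE (TGACNNNGC on either strand) in 2 AHR targets and 3 NRF2 targets whose values are given next. All read 5′ to 3′ along the gene.
Cyp1a1, chr9:57697363-57697662, plus strand: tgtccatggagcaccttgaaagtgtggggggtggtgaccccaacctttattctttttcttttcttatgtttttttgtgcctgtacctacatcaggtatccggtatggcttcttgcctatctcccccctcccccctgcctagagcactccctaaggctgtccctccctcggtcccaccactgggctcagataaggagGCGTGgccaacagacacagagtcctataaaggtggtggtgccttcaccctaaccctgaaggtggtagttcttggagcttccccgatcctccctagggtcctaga
Cyp1b1, chr17:79715012-79715311, minus strand: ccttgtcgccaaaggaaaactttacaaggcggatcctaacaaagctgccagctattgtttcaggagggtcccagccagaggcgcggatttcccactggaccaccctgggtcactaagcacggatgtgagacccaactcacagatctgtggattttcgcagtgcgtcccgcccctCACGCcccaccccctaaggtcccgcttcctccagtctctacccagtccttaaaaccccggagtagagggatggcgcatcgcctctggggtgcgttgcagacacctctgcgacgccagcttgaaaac
Gclm, chr3:122245307-122245606, plus strand: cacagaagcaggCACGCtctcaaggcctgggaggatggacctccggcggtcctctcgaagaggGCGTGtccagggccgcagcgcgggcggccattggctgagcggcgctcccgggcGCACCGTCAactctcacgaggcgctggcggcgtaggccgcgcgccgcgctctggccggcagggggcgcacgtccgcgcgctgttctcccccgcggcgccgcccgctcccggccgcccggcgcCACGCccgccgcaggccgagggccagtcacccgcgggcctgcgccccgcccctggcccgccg
Srxn1, chr2:152105274-152105573, plus strand: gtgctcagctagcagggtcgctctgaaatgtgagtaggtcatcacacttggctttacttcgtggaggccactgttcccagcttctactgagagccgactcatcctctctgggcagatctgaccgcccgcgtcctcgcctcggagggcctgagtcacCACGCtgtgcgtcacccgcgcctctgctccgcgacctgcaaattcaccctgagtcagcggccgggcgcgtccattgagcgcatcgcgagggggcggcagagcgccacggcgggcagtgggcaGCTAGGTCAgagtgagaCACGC
Txnrd1, the second of 3 promoters, chr10:82858956-82859255, plus strand: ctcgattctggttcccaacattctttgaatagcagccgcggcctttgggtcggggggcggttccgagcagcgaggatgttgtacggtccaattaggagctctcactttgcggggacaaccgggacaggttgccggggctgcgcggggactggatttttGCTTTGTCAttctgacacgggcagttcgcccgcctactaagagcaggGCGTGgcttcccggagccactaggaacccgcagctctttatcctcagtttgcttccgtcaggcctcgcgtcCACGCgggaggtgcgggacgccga
Positions name the leftmost base of a match, with the start as base 1. The XRE core lies at -54 in Cyp1a1 and at -76 in Cyp1b1. Gclm holds it at -238, -187 and -12 and the ARE letters at -134. Srxn1 holds the core at -94 and 46 and the ARE letters at 29. The second Txnrd1 promoter holds the core at -45 and 27 and the ARE letters at -92. None of these XRE and ARE matches overlap. Of the 7 members with a promoter, 6 had the XRE core and 3 the ARE letters in at least 1 window, and Nqo1 had neither. Among all 32851 promoters of this length, 32.4% held the XRE core and 12.4% the ARE letters, and the members' windows are rich in G and C (48.0% to 79.7%). The longer form TNGCGTG, which contains the core, was in 5.07% of all promoters and in no member's window. A match describes letters and not a bound site.

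Ahr was far lower in the KO line at both densities. Its probe, printed 10 times per array, had levels of -1.63, -1.77 and -1.82 in dense KO cells and -1.73, -2.0 and -1.46 in sparse KO cells. In rescue cells it had levels of 1.29, 1.09 and 1.23 at the dense and 1.56, 1.45 and 1.89 at the sparse seeding. All 6 KO cultures lay below all 6 rescue cultures. KO minus rescue was -2.95 ± 0.18 (SE, limma) in dense cells, a 7.70-fold lower level, and -3.36 ± 0.18 in sparse cells, a 10.3-fold lower level. On the 1 slide that held both lines the differences were -2.86 and -3.45. Dense minus sparse was -0.01 ± 0.18 in KO and -0.43 ± 0.18 in rescue cells, and these groups overlapped in KO but not in rescue cells.

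Cyp1a1, which encodes the monooxygenase that oxidises polycyclic aromatic hydrocarbons, was well above background on 3 of 3 sparse rescue arrays and on no other array. Its processed signal was 4.07, 6.12 and 3.87 intensity units in dense KO, 1.80, 9.78 and 2.38 in sparse KO, and 4.86, 2.29 and 3.77 in dense rescue cells. In sparse rescue cells it was 182, 38.4 and 56.7 units. The 9 dim values have no order among themselves. The level in sparse KO cells was at least 4.63-fold lower than in sparse rescue cells, and that in dense rescue cells at least 9.24-fold lower than in sparse rescue cells. The bound takes the bright group's mean over a floor, which on each dim array is the lowest signal that any detected probe had there, or the probe's own signal if higher. The call of Cyp1a1 depends on how background is handled, since normexp correction with an offset of 50 units gave -0.21 between the lines in sparse cells and -1.04 between the densities in rescue cells, both short of the threshold. On the shared slide, where the sparse rescue signal was 38.4 units, the measured difference between the lines was -1.70 in sparse cells. Both KO groups were below background, so no fold is given for their density response.

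Cyp1b1, which metabolises oestrogens and hydrocarbons, was lower in the KO line and lower in crowded cultures. Its levels were 1.96, 1.78 and 1.70 in dense KO and 2.35, 2.31 and 2.56 in sparse KO cells. Rescue cells had levels of 4.41, 3.99 and 3.43 at the dense and 5.09, 4.29 and 4.80 at the sparse seeding. No KO culture reached the lowest rescue culture. The difference KO minus rescue was -2.13 ± 0.26 in dense cells (4.37-fold lower) and -2.32 ± 0.26 in sparse cells (4.99-fold lower). Dense minus sparse was -0.79 ± 0.26 in rescue cells, where the densities overlapped, and -0.59 ± 0.26 in KO cells, where they did not. The rescue value passed the threshold only in part of the settings, and was lost without the dense rescue culture of day 2 (-0.81) or day 3 (-0.53) and without the sparse rescue culture of day 1 (-0.60) or day 3 (-0.75).

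Tiparp, a feedback inhibitor that ADP-ribosylates AHR, passed none of the comparisons. Its levels were 2.07, 1.94 and 2.03 in dense KO and 2.24, 2.04 and 2.25 in sparse KO cells, against 2.24, 2.54 and 1.59 in dense rescue and 2.02, 1.66 and 1.54 in sparse rescue cells. The dense rescue cultures spanned the range of both KO groups. Between the lines (KO minus rescue) the difference was -0.10 ± 0.23 in dense and 0.44 ± 0.23 in sparse cells, and dense minus sparse was -0.16 ± 0.23 in KO and 0.38 ± 0.23 in rescue cells, none past the threshold. The rescue value became 0.65 and passed without the dense rescue culture of day 3. With spike-in scaling the difference between the lines in sparse cells turned to -1.14 and passed.

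Nqo1, a quinone reductase that both AHR and NRF2 induce, was lower in the KO line. Its levels were -2.34, -2.18 and -1.92 in dense KO and -1.65, -1.46 and -1.51 in sparse KO cells. Rescue levels were -0.77, -1.52 and -0.30 at the dense and 0.46, -0.32 and -0.29 at the sparse seeding. At each density the lines did not overlap, while the densities overlapped in rescue but not in KO cells. KO minus rescue was -1.28 ± 0.30 in dense cells (2.43-fold lower) and -1.49 ± 0.30 in sparse cells (2.81-fold lower). These differences rest in part on the days when line and slide coincide: on the shared slide they were -0.66 and -1.14, and with the slide as a block -0.80 and -1.0, neither past the threshold. In dense cells normexp gave -0.59, spike-in scaling -0.47 and the deposited table of days 1 and 2 -0.56, all also short of it. Dense minus sparse was -0.61 ± 0.30 in KO and -0.81 ± 0.30 in rescue cells, and the rescue call held in only 2 of the 12 fits that left out 1 array, those without the dense rescue culture of day 3 and without the sparse rescue culture of day 2.

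Gclc and Gclm encode the catalytic and the modifier subunit of glutamate-cysteine ligase, the rate-limiting enzyme of glutathione synthesis, and both were higher in the KO line and lower in crowded cultures. Gclc had levels of 2.07, 1.92 and 2.02 in dense KO and 3.05, 2.78 and 2.75 in sparse KO cells. In rescue cells it had 0.58, 0.54 and 0.56 at the dense and 2.20, 1.86 and 1.43 at the sparse seeding. No pair of groups compared overlapped. KO minus rescue for Gclc was 1.45 ± 0.20 in dense cells (2.73-fold higher) and 1.03 ± 0.20 in sparse cells (2.04-fold higher), where it turned to -0.55 when arrays were scaled to spike-in RNA, a setting that moved the median of all genes by -1.58. Dense minus sparse for Gclc was -0.86 ± 0.20 in KO cells (1.81-fold lower) and -1.27 ± 0.20 in rescue cells (2.41-fold lower). The KO value lost its call without the dense KO culture of day 2 (-0.81) or the sparse KO culture of day 1 (-0.76). With spike-in scaling it turned to 2.24, where the median of all genes moved by 3.09. The rescue value of Gclc was -0.57 with that scaling and lost its call.

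Gclm followed Gclc with more spread in dense KO cells. Its levels were 0.69, 1.48 and 1.77 in dense KO and 1.78, 2.20 and 2.02 in sparse KO cells. Rescue levels were -0.51, -0.89 and -0.53 at the dense and 1.24, 1.1 and 0.77 at the sparse seeding. KO cultures lay above rescue cultures except that dense KO replicate 1 lay below sparse rescue cultures, a pair not compared here. For Gclm, KO minus rescue was 1.96 ± 0.26 in dense cells (3.89-fold higher) and 0.96 ± 0.26 in sparse cells (1.95-fold higher), where it lost its call with median scaling (0.66) or normexp (0.80) and turned to -0.61 with spike-in scaling. Dense minus sparse was -0.69 ± 0.26 in KO cells, short of the threshold, and -1.68 ± 0.26 in rescue cells (3.21-fold lower). The difference between these responses was 1.00 ± 0.37, which did not pass, and became 1.31 and passed without the dense KO culture of day 1. With spike-in scaling, dense minus sparse for Gclm turned to 2.40 in KO cells and passed. In rescue cells it was then -0.98 and lost its call, and the difference between the responses was 3.39 and passed.

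Srxn1, for sulfiredoxin, which repairs overoxidised peroxiredoxins, was lower in the KO line by 3 probes. The brightest had levels of 1.84, 1.36 and 1.69 in dense KO and 2.38, 1.92 and 2.08 in sparse KO cells, against 3.35, 3.44 and 3.28 in dense rescue and 3.92, 3.78 and 3.79 in sparse rescue cells. No group overlapped another. KO minus rescue was -1.73 ± 0.18 in dense cells (3.31-fold lower) and -1.70 ± 0.18 in sparse cells (3.26-fold lower). With spike-in scaling the dense value was -0.91 and lost its call. The other 2 probes differed by -1.29 and -1.54 in dense and by -1.60 and -1.41 in sparse cells. Their density responses were larger than those of the brightest probe. On density, dense minus sparse was -0.50 ± 0.18 in KO and -0.47 ± 0.18 in rescue cells on the brightest probe, short of the threshold, and -0.78 and -1.21 in KO and -1.1 and -1.08 in rescue cells on the others, all past it in the fit of single probes. With the experimental day as a replicate block the rescue value of -0.47 also passed, as it did in several other settings.

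Txnrd1, the cytosolic thioredoxin reductase, overlapped between the lines and was lower in crowded cultures, except under spike-in scaling, which gave -1.66 between the lines in sparse cells and 2.37 between the densities in KO cells, both past the threshold. Its levels were 3.86, 4.67 and 5.02 in dense KO and 5.14, 5.22 and 5.36 in sparse KO cells, against 4.57, 4.36 and 4.67 in dense rescue and 5.35, 5.42 and 5.2 in sparse rescue cells. The densities did not overlap in either line, while the lines overlapped at both densities. For Txnrd1, KO minus rescue was -0.01 ± 0.25 in dense and -0.08 ± 0.25 in sparse cells. On density, dense minus sparse was -0.72 ± 0.25 in KO cells, which did not pass, and -0.79 ± 0.25 in rescue cells, which passed in 8 of the 12 fits that left out 1 array and not without the dense or the sparse rescue culture of day 1 or of day 2. Without the dense KO culture of day 3 the KO value was -0.97 and passed.

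Hmox1, for haem oxygenase 1, which breaks haem down to biliverdin, iron and carbon monoxide, was high in 1 group. Its levels were 2.31, 2.46 and 3.90 in dense KO and 5.13, 4.83 and 5.39 in sparse KO cells. Rescue levels were 2.63, 2.78 and 3.26 at the dense and 2.83, 2.64 and 3.38 at the sparse seeding. The 3 sparse KO cultures lay above all 9 others, which overlapped. For Hmox1, KO minus rescue was -0.00 ± 0.38 in dense and 2.17 ± 0.38 in sparse cells (4.49-fold higher), and 2.19 on the shared slide in sparse cells. Its dense minus sparse value was -2.22 ± 0.38 in KO cells (4.67-fold lower) and -0.06 ± 0.38 in rescue cells, a difference between the responses of -2.17 ± 0.54. With spike-in scaling the sparse difference was 0.59 and did not pass, and the KO density response and the difference between responses turned to 0.87 and 0.22, against shifts of the median of all genes of 3.09 and 2.39.

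**Figure D1:**
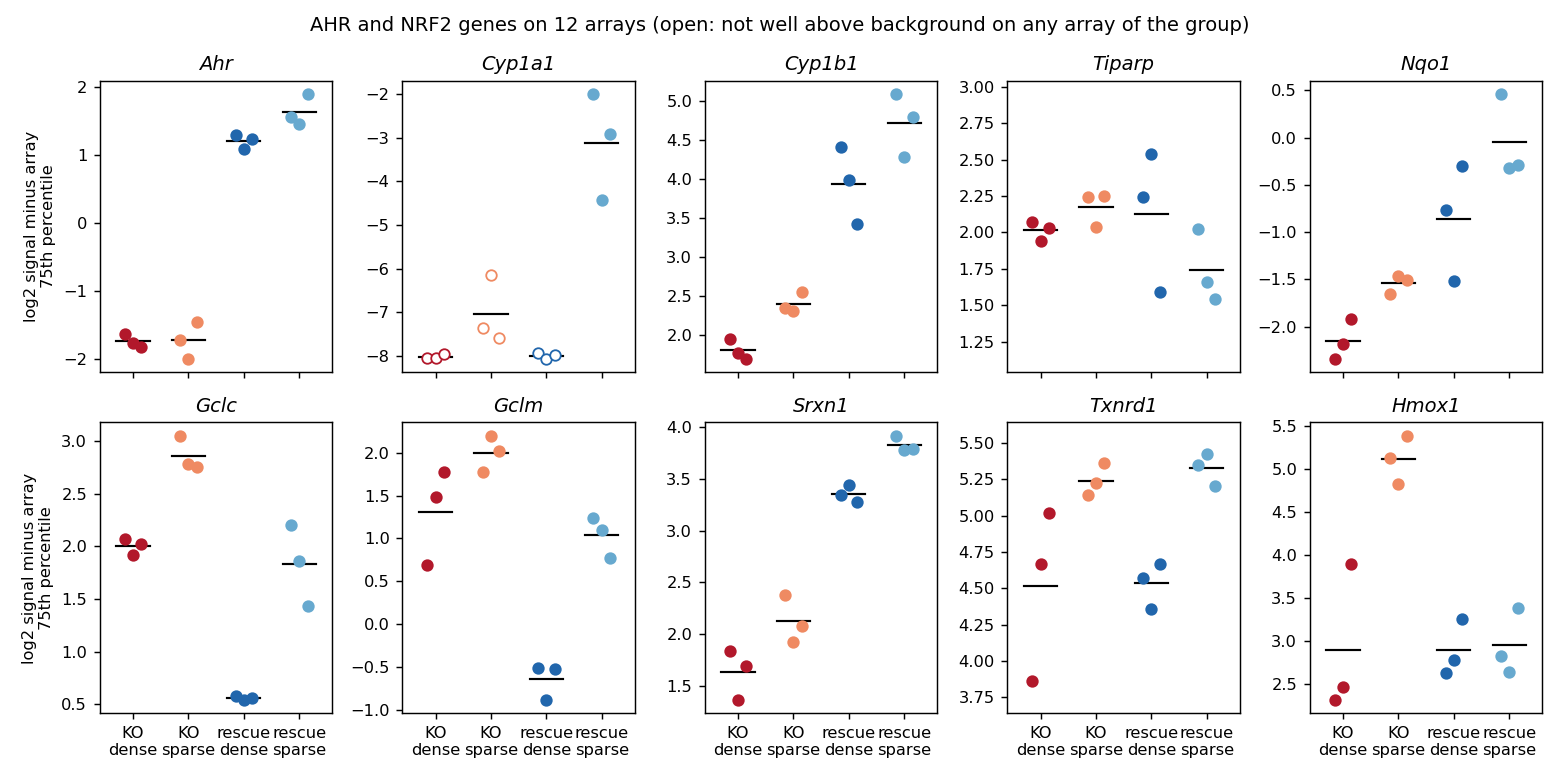
Level of each of the 10 genes (log2 signal minus the array's 75th percentile) on the 12 arrays, with dense KO, sparse KO, dense rescue and sparse rescue cells from left to right; each point is 1 array, the bar is the mean of 3, and open points mark a group with no array well above background. Ahr, Cyp1b1 and Srxn1 are lower in all KO than in all rescue cultures, Cyp1a1 is filled only in sparse rescue cells, and Hmox1 is highest in sparse KO cells.

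The KO line was set against the rescue line at each density, a comparison in which FAK, medium and clone differ together. In dense cells, 6 of the 10 members passed an adjusted p threshold of 0.05 (limma, Benjamini-Hochberg over all genes tested), with Gclc and Gclm higher and Ahr, Cyp1b1, Nqo1 and Srxn1 lower in KO cells. Of all genes 61.6% passed there, 31.9% higher and 29.8% lower. In sparse cells 8 of 10 passed, with Hmox1 added to the higher and Cyp1a1 to the lower genes (Gclc and Gclm turned under spike-in scaling). Of all genes 48.9% passed in sparse cells, 23.3% higher and 25.6% lower. Cyp1a1 entered the test only through sparse rescue cells, the group where it is high, so its call is a description only. The median difference of the members was -0.06 in dense and -0.79 in sparse cells, beside 0.07 and 0.02 over all genes. Since the values chose the members, nothing is read from these counts. The comparisons of lines at the 2 densities share no array, while those of densities use the same 12 arrays again.

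**Figure D2:**
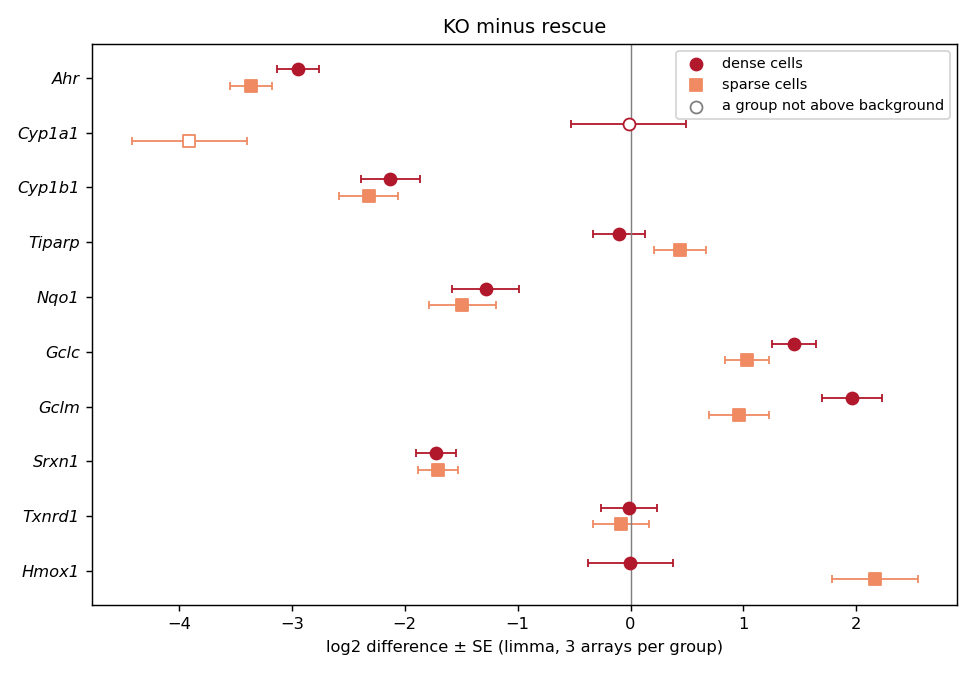
KO minus rescue (log2 difference ± SE from limma, 3 arrays per group) for each gene in dense cells (circles) and sparse cells (squares); open symbols mark a comparison with a group not above background. Gclc and Gclm lie right of 0 (in sparse cells they turned under spike-in scaling), Ahr, Cyp1b1, Nqo1 and Srxn1 left of it at both densities, and Hmox1 and Cyp1a1 leave 0 only in sparse cells.

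The comparison of densities asked how each line responds to crowding. In KO cells 2 of 10 members passed, Hmox1 and Gclc, both lower in dense cells except under spike-in scaling, which turned both, against 11% of all genes, 5.45% higher and 5.50% lower. The count was 1 without the dense KO culture of day 2 or the sparse KO culture of day 1. In rescue cells 6 of 10 passed, all lower in dense cells: Cyp1a1, Cyp1b1, Nqo1, Gclc, Gclm and Txnrd1. Cyp1a1 is counted here although it entered the test only through sparse rescue cells. With spike-in scaling its call was the only 1 of these that remained. Of all genes 40.1% passed, 19.1% higher and 21% lower. The rescue count was 3 without the dense rescue culture of day 2 or the sparse rescue culture of day 1. The medians of the members were -0.65 in KO and -0.79 in rescue cells, beside -0.00 and -0.08 over all genes. The test of the difference between the responses, dense minus sparse in KO cells minus the same in rescue cells, was passed by Hmox1 (-2.17 ± 0.54, turned to 0.22 under spike-in scaling) and, by its signals as measured, Cyp1a1, 2 of 10, against 20.8% of all genes, 11.3% higher and 9.52% lower. Cyp1a1 was below background in 3 of 4 groups and passed the filter only through sparse rescue cells, so no size is given for its difference between responses.

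**Figure D3:**
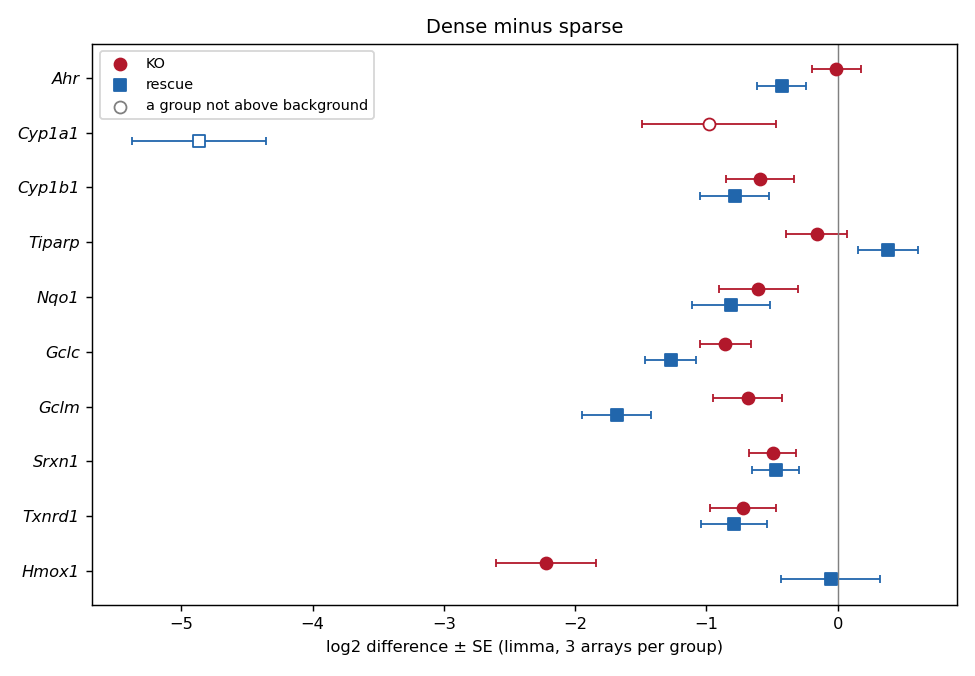
Dense minus sparse (log2 difference ± SE from limma, 3 arrays per group) for each gene in KO cells (circles) and rescue cells (squares); open symbols mark a comparison with a group not above background. Most genes lie left of 0 in both lines, with Hmox1 far left only in KO cells (it turned under spike-in scaling) and Cyp1a1 far left in rescue cells.

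Of 133 other genes of these pathways, in 11 lists, 126 were on the array and 121 were tested. In dense cells 32 were higher and 52 lower in KO than in rescue cells (26.4% and 43.0% of those tested), with a median of -0.35. In sparse cells 26 were higher and 37 lower (21.5% and 30.6%), with a median of -0.21. The threshold for dense minus sparse was passed by 16 genes in KO cells, 5 higher and 11 lower, and by 50 in rescue cells, 26 higher and 24 lower. The KO count was 6 without the dense KO culture of day 2 or the sparse KO culture of day 3. Between the lines 69.4% of these genes passed in dense and 52.1% in sparse cells, against 61.6% and 48.9% of all genes. Between the densities 13.2% passed in KO and 41.3% in rescue cells, against 11% and 40.1% of all genes. In dense KO cells 31.9% of all genes were higher and 29.8% lower, in sparse KO cells 23.3% and 25.6%. The counts of single lists below stand beside these shares as a description, and nothing is read from them. Of the calls between the lines, 7 of 84 in dense and 12 of 63 in sparse cells turned their sign with spike-in scaling. That scaling ended 32 of the dense and 16 of the sparse calls, and normexp ended 23 and 20.

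Nfe2l2, the gene of NRF2 itself, had mean levels of 2.70 ± 0.06 in dense KO and 2.68 ± 0.20 in sparse KO cells, against 2.83 ± 0.64 in dense rescue and 1.99 ± 0.64 in sparse rescue cells (SD, n = 3 each), and passed none of the 5 comparisons. Its difference between the lines was -0.12 ± 0.34 in dense (limma, adjusted p = 0.774) and 0.69 ± 0.34 in sparse cells (adjusted p = 0.114). It came to -0.91 in dense cells with the slide as a block, and to 1.05 in sparse cells without the sparse rescue culture of day 2, both past the threshold. Dense minus sparse for Nfe2l2 in rescue cells was 0.84 ± 0.34 (limma, adjusted p = 0.0707) and passed in several settings, among them without that culture (1.197). Keap1 was higher in dense KO cells by 0.60 ± 0.23 (limma, adjusted p = 0.044), a call lost in most other settings, and differed by 0.28 ± 0.23 in sparse cells (adjusted p = 0.357). Bach1 was lower in dense KO cells, at 0.34 ± 0.82 against 2.65 ± 0.44 in dense rescue cells (SD, n = 3 each), a difference of -2.31 ± 0.45 (limma, adjusted p = 0.00084). In sparse cells Bach1 differed by -1.0 ± 0.45 (adjusted p = 0.0901), which passed with the experimental day as a replicate block. Of all 14 regulators tested, 5 were higher and 4 lower in dense KO cells (median 0.22) and 3 higher and 2 lower in sparse KO cells (median 0.11). Sqstm1, whose product p62 draws KEAP1 into autophagy, was lower in KO cells (KO minus rescue -1.72 ± 0.22 in dense and -1.77 ± 0.22 in sparse cells; limma, adjusted p = 2.75e-05 and 3.27e-05). The related factor gene Nfe2l1 was also lower (-1.27 ± 0.15 and -1.01 ± 0.15; limma, adjusted p = 1.81e-05 and 0.000182). With spike-in scaling both lost the call in dense cells (-0.91 and -0.45).

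Among partners and targets of AHR, the largest differences ran both ways. Arnt, the dimer partner, had mean levels of -1.06 ± 0.30 in dense KO, -1.38 ± 0.44 in sparse KO, -1.76 ± 0.36 in dense rescue and -2.0 ± 0.45 in sparse rescue cells (SD, n = 3 each). Its difference between the lines was 0.70 ± 0.30 in dense (limma, adjusted p = 0.0588) and 0.61 ± 0.30 in sparse cells (adjusted p = 0.107), both of which passed with the experimental day as a replicate block. Ahrr, the AHR repressor, was above background on all KO arrays (-3.08 ± 0.39 dense, -2.95 ± 0.67 sparse) and on no rescue array. It was at least 9.51-fold higher in dense (limma, adjusted p = 1.88e-07) and at least 8.15-fold higher in sparse KO cells (adjusted p = 3.98e-07), a call that normexp ended (0.91 and 1.26). Ncoa1, a coactivator gene, was lower in KO cells, at -3.21 ± 0.20 in dense and -2.72 ± 0.20 in sparse cells (KO minus rescue; limma, adjusted p = 6.4e-08 and 3.61e-07). Of 10 partners and chaperones tested, 3 were higher and 1 lower in dense KO cells (median 0.52) and 1 higher and 2 lower in sparse KO cells (median -0.19).

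Of the 6 other xenobiotic targets tested, 2 were higher and 3 lower in dense KO cells (median -0.88) and 2 higher and 4 lower in sparse KO cells (median -1.89). Cyp2s1, a further P450 gene, was 587-fold higher in dense KO cells (9.20 ± 0.34, limma, adjusted p = 4.87e-10). In sparse KO cells it was 388-fold higher (8.60 ± 0.34, limma, adjusted p = 1.09e-09). Its rescue levels were low, at -5.57 ± 0.67 in dense and -5.41 ± 0.33 in sparse cells (SD, n = 3 each). With levels this low, and 2 of 3 sparse rescue arrays above background, the size of both folds is uncertain. Aldh3a1, an aldehyde dehydrogenase gene, went the other way, below background on all KO arrays and at -2.09 ± 0.35 in dense and -2.25 ± 0.57 in sparse rescue cells. It was at least 13.9-fold lower in dense and at least 8.49-fold lower in sparse KO cells (limma, adjusted p = 4.96e-08 and 2.88e-07), and normexp ended both calls (-1.31 and -0.71). Serpinb2, for an inhibitor of plasminogen activators, had mean levels of -5.70 ± 0.23 in dense KO, -3.36 ± 0.25 in sparse KO, -5.26 ± 0.60 in dense rescue and -0.69 ± 0.29 in sparse rescue cells (SD, n = 3 each). Dense minus sparse was -4.57 ± 0.28 in rescue cells (limma, adjusted p = 1.3e-06) and -2.34 ± 0.28 in KO cells (adjusted p = 0.00159), with 1 of 3 dense KO and 2 of 3 dense rescue arrays above background. The difference between these responses was 2.24 ± 0.40 (limma, adjusted p = 0.0028), a size that is uncertain since both dense groups lay near background. Normexp ended that call (1.62) and the KO call (-0.76), while spike-in scaling turned the KO value to 0.75.

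Around glutathione, 9 of 28 genes were higher and 13 lower in dense KO cells (median -0.55), and 10 higher and 9 lower in sparse KO cells (median -0.06). Glutathione transferase genes ran in both directions. Gstm4 was above background on no rescue array and passed the filter on dim probes only through KO cells. It was at least 14.4-fold higher in dense and at least 9.93-fold higher in sparse KO cells (limma, adjusted p = 9.03e-09 and 2.98e-08). Mgst3 differed by -4.31 in dense and -3.59 in sparse cells (limma, adjusted p = 1.24e-08 and 8.38e-08). The Gsta and Gstm genes are close copies of each other, so which copy a probe read is uncertain. Chac1, for an enzyme that degrades glutathione, had 5.04 ± 0.55 in dense KO and 4.42 ± 0.17 in sparse KO cells, against 2.18 ± 0.22 in dense rescue and 4.54 ± 0.34 in sparse rescue cells (SD, n = 3 each). Its density response differed between the lines by 2.98 ± 0.39 (limma, adjusted p = 0.00045). Slc7a11, for the cystine importer, was below background in dense rescue cells alone. It was at least 11.3-fold higher in dense KO than in dense rescue cells (limma, adjusted p = 1.63e-05) and did not pass in sparse cells (0.54 ± 0.46), and normexp ended its dense call (1.00). Of the thioredoxin genes 5 of 13 were higher and 4 lower in dense KO cells (median 0.07) and 2 higher and 2 lower in sparse KO cells (median -0.09). Txnip, for the inhibitor of thioredoxin, rose 6.34-fold in dense against sparse rescue cells (2.67 ± 0.24; limma, adjusted p = 1.18e-05) and did not pass in KO cells (0.37 ± 0.24), a difference between the responses of -2.29 ± 0.34 (adjusted p = 0.000938), which was 0.10 with spike-in scaling.

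Beside Hmox1, the 11 other haem and iron genes tested had 2 higher and 6 lower in dense KO cells (median -0.61) and 1 higher and 2 lower in sparse KO cells (median 0.01). Blvrb, a biliverdin reductase gene, was lower in KO cells at both densities. KO minus rescue was -2.85 ± 0.27 in dense and -2.61 ± 0.27 in sparse cells (limma, adjusted p = 1.91e-06 and 5.94e-06). Blvra, the other biliverdin reductase gene, had mean levels of 1.88 ± 0.21 in dense KO and 1.79 ± 0.22 in sparse KO cells. Rescue cells had Blvra levels of 1.765 ± 0.07 at the dense and 1.54 ± 0.12 at the sparse seeding (SD, n = 3 each). Slc40a1, for the iron exporter ferroportin, had mean levels of -2.04 ± 0.34 in dense KO, -2.21 ± 0.22 in sparse KO, 2.28 ± 0.25 in dense rescue and -2.30 ± 0.45 in sparse rescue cells (SD, n = 3 each). Only its dense rescue cultures stood high among the 4 groups. Its density response differed between the lines by -4.42 ± 0.36 (limma, adjusted p = 3.6e-05). Tfrc, for the transferrin receptor that imports iron, ran opposite, with 3.15 ± 0.23 in dense KO, 3.52 ± 0.14 in sparse KO, -0.03 ± 0.41 in dense rescue and 2.53 ± 0.49 in sparse rescue cells. Its responses differed by 2.20 ± 0.38 (limma, adjusted p = 0.00219).

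The remaining lists covered reducing power and detoxification. Of 6 genes for NADPH supply, 3 were lower and 3 did not pass at each density (medians -0.68 and -0.65). The lower ones included G6pdx, the entry to the pentose phosphate pathway (KO minus rescue -1.89 ± 0.16 in dense and -1.99 ± 0.16 in sparse cells; limma, adjusted p = 9.02e-07 and 7.75e-07). Of 15 genes for quinone, carbonyl and epoxide handling, 2 were higher and 9 lower in dense KO cells (median -0.89) and 3 higher and 7 lower in sparse KO cells (median -0.46). In dense against sparse rescue cells 7 of the 15 were higher and 2 lower (median 0.66), beside 19.1% and 21% of all genes. Cbr3, a carbonyl reductase gene, was 87.2-fold lower in dense and 91.6-fold lower in sparse KO cells (limma, adjusted p = 4.59e-10 and 5.59e-10). Ptgr2, a prostaglandin reductase gene, was above background on no rescue array and passed the filter on dim probes only through KO cells. It was at least 138-fold higher in dense and at least 124-fold higher in sparse KO cells (limma, adjusted p = 2.21e-10 and 4.37e-10). Aldh1a1, for a retinaldehyde dehydrogenase, was 156-fold higher in dense and 344-fold higher in sparse KO cells (limma, adjusted p = 4.84e-10 and 2.11e-10). Of 6 efflux pumps, 2 were higher and 2 lower in dense KO cells (median -0.52) and 3 higher and 2 lower in sparse KO cells (median 0.05). Of 5 other NRF2 targets, 2 were higher and 2 lower in dense KO cells (median 0.31) and 1 higher and 3 lower in sparse KO cells (median -1.23). Pir (pirin) was above background on no rescue array and passed the filter on dim probes only through KO cells. It was at least 95.5-fold higher in dense and at least 71.7-fold higher in sparse KO cells (limma, adjusted p = 4e-09 and 1.17e-08). Htatip2 was 78.3-fold lower in dense KO cells, with 2 of 3 arrays above background, and at least 66.0-fold lower in sparse KO cells. Of 7 other antioxidant enzymes, 5 were lower in dense KO cells (median -0.66) and 1, Gpx8, in sparse KO cells (median -0.37).

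**Figure D4:**
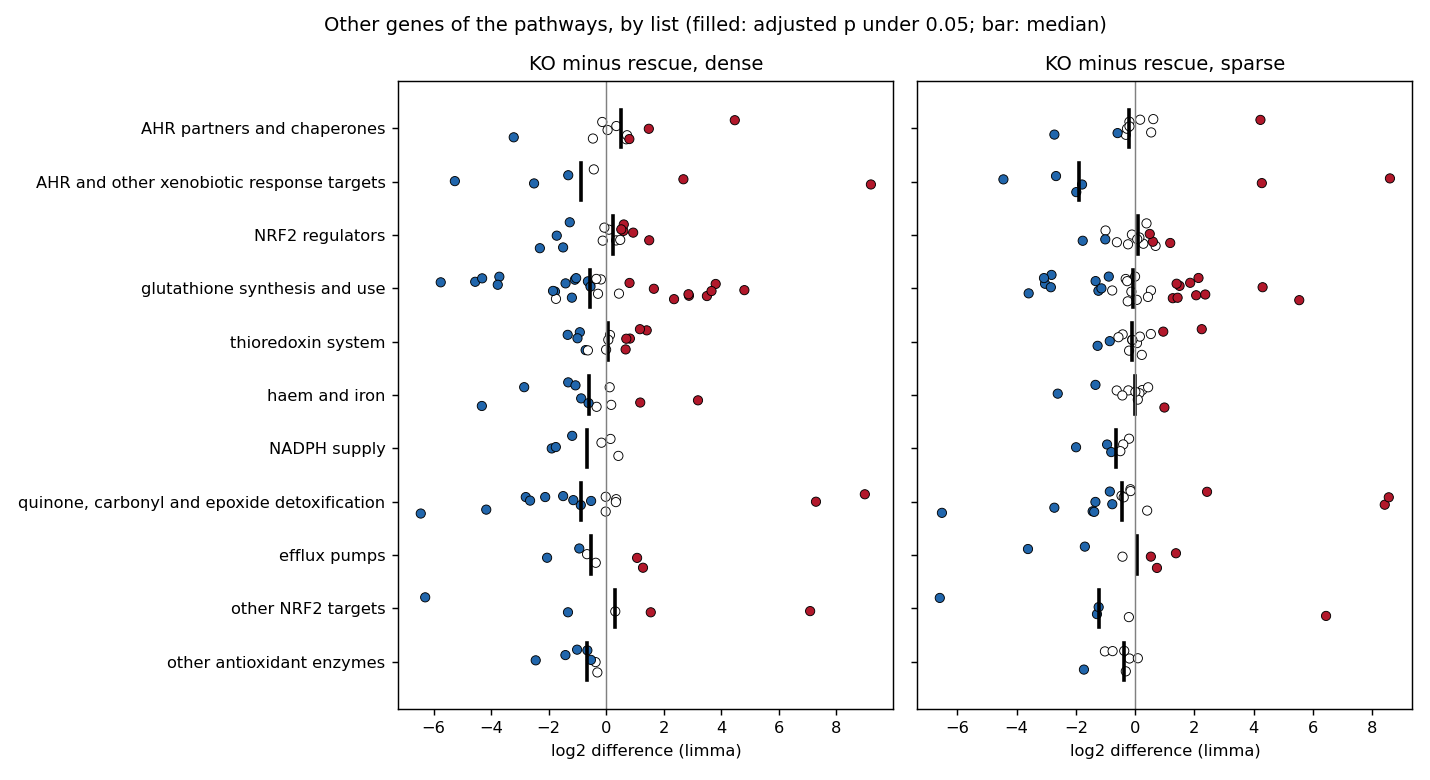
KO minus rescue (log2 difference, limma) for 121 other genes of the pathways in 11 lists, in dense cells (left) and sparse cells (right); each point is 1 gene, filled red (higher) or blue (lower) where the adjusted p is under 0.05, and the bar is the list's median. Large differences in both directions appear in the lists of AHR targets, glutathione genes, quinone and carbonyl enzymes and other NRF2 targets.

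The genes whose profiles over the 12 arrays were nearest to each member, by the root-mean-square difference of centred log2 levels among 12333 genes, are given as a description. Nearest to Ahr were Pak1 (0.153), Tmem119 (0.229) and Elovl4 (0.246). Nearest to Cyp1b1 was Timp1 (0.301), to Cyp1a1 Lce1f (0.575) and to Hmox1 Ubr3 (0.364). Gclc was closest to Trib1 (0.189), Lsm5 (0.196) and Mat2a (0.197), and Gclm to Ahcy (0.227). Txnrd1 was closest to Cryab (0.146), Srxn1 to Sppl2b (0.193), Nqo1 to Cep295nl (0.317) and Tiparp to Ap3s2 (0.131). The nearest gene was farther for Cyp1a1 and Hmox1 than for the other 8 members, and the Cyp1a1 profile rests on 9 arrays below background.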

How the data were processed

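Total RNA of 12 cultures was hybridised to one-colour arrays. Per the file headers, the scanner files hold spot intensity on a linear scale from Agilent Feature Extraction 10.5.1.1, background-subtracted by the authors and not normalised between arrays, with flags for outliers and spots well above background. The deposited value table holds log2 intensity, its normalisation not given in the sources used here. Its 4 columns for day 3 follow other arrays of that day (r = 0.9719 to 0.9837, against 0.8328 to 0.8739 with the array named), while those of days 1 and 2 follow their own (0.9795 to 0.9873), so its direction is certain for days 1 and 2 only; column medians are 8.38 to 8.394. It served as an alternative for days 1 and 2.

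Control spots and outliers (79 to 265 of 43379 spots) were left out, no spot was saturated, and spots of a probe were averaged. Levels are log2 processed signals minus the array's 75th percentile. Probes were named through RefSeq transcripts (GRCm38.p6), which gave 24375 of 41174 a gene. A probe was kept if flagged well above background on the 3 arrays of any group (18128 with a gene), and the brightest stood for its gene. A gene detected only in some groups passed this filter through those groups. Its adjusted p against an undetected group compares signal with background. limma 3.58.1 (R 4.3.3) fitted 4 group means (8 residual and 3.63 prior degrees of freedom), with Benjamini-Hochberg adjustment over 12411 genes in each of 5 comparisons.

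The members and lists were chosen with earlier results of these data known. Named beside the members were Nfe2l2, Keap1, Bach1, Arnt, Ahrr and Ptk2, and of each list and comparison the called genes with the 3 largest changes and the largest opposite one were eligible, as were the 3 nearest profiles of a member. Blvra was named as the other biliverdin reductase gene beside Blvrb. The markers were likewise fixed with earlier results known. Replicates are cultures of 3 experimental days, per the labels, which pair arrays across groups; 11 of 18 pairs of the same day correlated above 0.1 in their deviations from group means (-0.03842 to 0.2947). The main fit has no block. Alternatives were other background correction, scaling, probe filters and choices, the day or slide as a block, and leaving out each array; normexp used median signals, since the files used here give no mean signal.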

Additional observations from a re-analysis of the deposited data

Results flagged for a closer look

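Cyp1a1 and Hmox1 were marked because their response to crowding differed between the lines by the test of that difference (dense minus sparse in KO cells, minus the same in rescue cells). For Cyp1a1 the fitted value was 3.89, but the sparse rescue cultures alone were above background and the gene passed the filter only through them, so the value is no measure of a difference in response. It did not pass with normexp (0.61), with the deposited table (1.70) or without replicate 3 of every group (3.48). For Hmox1 it was -2.169 ± 0.54, with the sparse KO cultures alone high. It was -2.67 to -1.88 without 1 of the arrays, -2.51 on the slide that held both lines and -1.77 with normexp. With spike-in scaling it turned to 0.22 and did not pass. Both genes were chosen with these arrays' values known.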

How the results depend on the processing

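The counts of members past the threshold between the lines, 6 in dense and 8 in sparse cells, stayed within 1.5 times of these values in all settings run. They did not move without any 1 array. The genes behind the counts did change with spike-in scaling. In sparse cells Hmox1, Gclc and Gclm then lost their calls, while Tiparp (-1.14) and Txnrd1 (-1.66) gained one. In dense cells Nqo1 (-0.47) and Srxn1 (-0.91) lost theirs. The density counts depended on the settings. In KO cells, 2 members became 1 with normexp, with median scaling, with the deposited table and without replicate 3 of every group. The last of these settings was chosen after seeing the data. Leaving out 1 array gave 1 to 3, and spike-in scaling gave 9. Those 9 include Cyp1a1 (2.11), which was below background on all KO arrays, and not Hmox1 (0.87). In rescue cells, 6 became 2 with normexp, 3 with median scaling and 1 with spike-in scaling (3 to 6 without 1 array). For the difference between responses, 2 became 1 with normexp, with the deposited table and without replicate 3 of every group. It was also 1 with probes above background on all 12 arrays, where Cyp1a1 was not tested. Spike-in scaling gave 9, again with Cyp1a1 and without Hmox1 (0.22), and leaving out 1 array 2 to 3.

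Of the other pathway genes, 63 in sparse cells became 103 with spike-in scaling. In KO density, 16 became 120 with spike-in scaling, 10 without a filter and without replicate 3 of every group, and 0 with normexp (limma; 16 at an unadjusted p under 0.05), and 6 (without the dense KO culture of day 2 or the sparse KO culture of day 3) to 18 without 1 array. In rescue density 50 became 30 with normexp. For the difference between responses 33 became 10 with normexp, 99 with spike-in scaling, 20 with the deposited table and 17 without replicate 3 of every group. Leaving out 1 array gave 76 to 87, 59 to 66, 42 to 51 and 24 to 32 for the comparisons of lines in dense and sparse cells, rescue density and the difference between responses.

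Spike-in scaling moved the median of all genes by 0.81 (lines, dense), -1.58 (lines, sparse), 3.09 (KO density), 0.70 (rescue density) and 2.39 (difference between responses). It reversed Hmox1 in KO density (0.87) and in the difference between responses (0.22), Gclc in sparse cells (-0.55) and KO density (2.24), and Gclm in sparse cells (-0.61). It shifts all genes of an array alike, so the order of genes is not affected. Median scaling moved the medians by -0.30 in sparse cells and 0.25 in KO density, with 1788 genes higher and 4053 lower in sparse KO cells, against 2888 and 3180. It gave 1227 higher and 293 lower in KO density, against 677 and 683, and 1693 and 698 for the difference between responses, against 1402 and 1181. Spike-in scaling gave 5442 and 1506 (lines, dense; 3953 and 3698 with the 75th percentile), 572 and 9078 (lines, sparse), 12354 and 2 (KO density), 3061 and 339 (rescue density; against 2368 and 2612) and 10825 and 47 (difference between responses). Normexp called 5044, 3370, 49, 2335 and 573 of all genes in the 5 comparisons, against 7651, 6068, 1360, 4980 and 2583. With the experimental day as a replicate block the member counts were 6, 8, 2, 7 and 2 in the 5 comparisons, and those of other genes 87, 69, 20, 53 and 35; the block gained Srxn1 in rescue density and changed no other member's call. With the slide as a block the line differences rest on 1 slide. Signals near background, as of Cyp1a1, limit the size of a fold.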
